A study of Mus musculus with 9 samples.

Results

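The genes described here encode nuclear subunits of respiratory complexes III and V, a part of those of complex IV, cytochrome c, and some of the factors that assemble these complexes. Members were taken by symbol: the complex III (Uqcr and Uqcc), complex V (Atp5) and complex IV families of Cox5, Cox6b, Cox6c, Cox7b, Cox7c, Cox10 to Cox19 and Cox20, together with Cyc1, Cycs, Atpaf1, Atpaf2, Bcs1l, Ttc19, Surf1, Sco1 and Sco2. The names matched 68 of the 55359 genes in the count table. Leaving out 13 pseudogenes gave 55 rows with 54 distinct symbols, since Atp5o stood on 2 rows. They comprise 9 subunits and 5 assembly factors of complex III, 1 carrier (Cycs), 8 subunits and 12 assembly factors of complex IV, and 18 subunit rows and 2 assembly factors of complex V. After the filter on low counts 53 were tested. Those left out were Cox7b2, a testis isoform with 1 count in all 9 libraries, and the second Atp5o row, which held 0 counts throughout.

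Complex III passes electrons from ubiquinol to cytochrome c, and complex IV passes them on to oxygen. Both pump protons across the inner mitochondrial membrane. Complex V, the ATP synthase, lets the protons flow back through its ring of c subunits and uses their energy to make ATP in its F1 sector. The catalytic cores of complexes III and IV need heme, iron-sulfur or copper centres, which dedicated assembly factors insert. Brown and beige fat cells are rich in mitochondria, and uncoupling protein 1 in their inner membrane lets protons return without ATP being made.

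Ribosome footprints were counted in mouse preadipocytes cultured from inguinal white adipose tissue, a subcutaneous depot. The 3 groups were cells before induction (day 0), and cells after 4 and 8 days of beige differentiation, with 3 libraries each. Both later groups had been induced for 2 days with dexamethasone, 3-isobutyl-1-methylxanthine, indomethacin, insulin, triiodothyronine and rosiglitazone, a PPARgamma agonist, and then kept without the first 3 of these agents. The labels name no strain, sex, age or number of animals. Libraries held between 30823028 and 38994892 counts. Values are given as CPM, read counts normalised to each library's size after TMM scaling.

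At day 4 and at day 8, 1 library stood apart from the others of its day. On the first principal component of all tested genes, which held 75.9% of the variance, replicate 2 of day 4 lay at 12.8, against 64.8 and 65.4 for its companions. Replicate 3 of day 8 lay at 62.1, against 85.5 and 85.8. The members moved with this position. Day 4 replicate 2 was the lowest library of its day for 48 of 53 members, with a median ratio of 0.699 to the mean of the other two, and day 8 replicate 3 was the lowest of its day for 41 of 53, with a median ratio of 0.853. The cell identity markers moved too. Summed over 5 adipocyte markers, the level ranged over 233 to 297 CPM at day 0, 29786 to 46105 CPM at day 4 and 46633 to 49888 CPM at day 8. Most of this sum was Fabp4, with means of 187, 34392 and 43293 CPM at day 0, day 4 and day 8. At day 8 against day 4 Adipoq was lower (log2 -0.587, edgeR adjusted p 0.0168). Fabp4, Plin1, Pparg and Cebpa were not called in that comparison. The 6 preadipocyte markers summed to between 2398 and 2544, between 801 and 1810, and between 527 and 721 CPM at the same days, and the 4 brown and beige markers to between 3.06 and 3.69, between 168 and 284, and between 781 and 1350 CPM. Most of the brown and beige sum at day 4 was Elovl3, with a mean of 202 CPM beside 9.19 CPM for Ucp1. At day 8 against day 4 Ucp1, Cidea and Ppargc1a were higher and Elovl3 was not called. The preadipocyte markers did not move as one. At day 4 against day 0 Pdgfrb and Dpp4 were lower, Pdgfra was not called, and Cd34, Ly6a and Dlk1 were higher, by 3.24-fold, 1.82-fold and 1.70-fold (edgeR adjusted p 0.0319, 0.0338 and 0.0366). At day 8 against day 0 Pdgfra and Pdgfrb were lower and the other 4 were not called. Among markers of other cells, 4 macrophage genes summed to between 16.4 and 34.9 CPM over all libraries, 3 endothelial genes to between 1.89 and 6.82 CPM, and 3 skeletal muscle genes to at most 0.0828 CPM. The part of cell makeup in the results on members was not tested.

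The upstream sequences of 4 members, chosen by their footprint results, are shown. Cox5b had the largest difference between day 8 and day 4 among the complex IV subunits that are members, and Uqcc2 was the only member that fell against day 0. Atp5g3 and Atp5g2 are genes of one family that encode the same mature c subunit. Atp5g3 rose, whereas Atp5g2, which rested on few counts, was not called. Of the 54 members, 54 matched RefSeq by symbol and 45 had a promoter window in build GRCm38.p6. Each stretch below is the 250 bases before the RefSeq start site, 5′ to 3′ on the gene's own strand. Cox5b lies on the plus strand at chr1:36691237-36691486. The other stretches are on the minus strand, Uqcc2 at chr17:27133892-27134141, Atp5g3 at chr2:73911327-73911576 and Atp5g2 at chr15:102671048-102671297. Capitals mark TGCGCA, the core of the element bound by nuclear respiratory factor 1, or TGACCTT, which is the half-site AAGGTCA of estrogen-related and other nuclear receptors read on the opposite strand.
Cox5b: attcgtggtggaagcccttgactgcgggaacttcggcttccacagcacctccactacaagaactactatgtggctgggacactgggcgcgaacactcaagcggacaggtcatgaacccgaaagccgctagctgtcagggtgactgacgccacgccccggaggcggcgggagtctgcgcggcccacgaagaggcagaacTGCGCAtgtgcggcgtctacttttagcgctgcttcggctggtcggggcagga
Uqcc2: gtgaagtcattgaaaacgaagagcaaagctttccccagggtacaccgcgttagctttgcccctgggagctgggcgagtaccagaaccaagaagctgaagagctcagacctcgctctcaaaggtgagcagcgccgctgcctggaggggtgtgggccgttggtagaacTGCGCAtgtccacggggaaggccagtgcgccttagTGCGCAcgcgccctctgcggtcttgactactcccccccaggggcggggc
Atp5g3: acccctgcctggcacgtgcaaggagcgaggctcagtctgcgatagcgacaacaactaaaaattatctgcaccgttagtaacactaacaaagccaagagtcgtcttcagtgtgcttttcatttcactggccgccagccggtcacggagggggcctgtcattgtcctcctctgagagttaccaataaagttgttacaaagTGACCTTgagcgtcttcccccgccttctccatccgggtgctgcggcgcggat
Atp5g2: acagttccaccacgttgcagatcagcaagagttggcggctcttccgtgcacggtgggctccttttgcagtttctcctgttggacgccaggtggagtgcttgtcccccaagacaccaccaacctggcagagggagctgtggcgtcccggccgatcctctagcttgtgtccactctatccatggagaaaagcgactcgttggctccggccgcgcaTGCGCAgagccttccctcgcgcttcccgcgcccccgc

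TGCGCA starts 52 bases before the start site of Cox5b, 84 and 49 bases before that of Uqcc2, and 37 bases before that of Atp5g2. Atp5g3 has AAGGTCA 52 bases before its start site. In windows of 300 bases searched on both strands, TGCGCA, which reads the same on both, occurred in 6 of 45 members (13.3%) and in 11% of 17492 protein-coding genes. AAGGTCA occurred in 5 of 45 members (11.1%) against 4.73% of coding genes, and AAGATGG, the YY1 core, in 8 of 45 (17.8%) against 7.18%. None of these motifs overlap in the printed stretches. By class, TGCGCA occurred in 5 of 27 subunits and 1 of 17 assembly factors, AAGGTCA in 4 and 1, and AAGATGG in 4 and 4. In the printed genes, which were chosen by their results, TGCGCA stood beside a rise (Cox5b), a fall (Uqcc2) and no call (Atp5g2). The other members with TGCGCA, namely Uqcrc1, Atp5l and Atp5pb, were higher on both days. Atp5g2 held only 4 to 18 counts per library, and the part of the motif in these results was not tested.

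Nearly all members rose with differentiation. At day 4 against day 0, 49 of 53 tested members were higher, 1 was lower and 3 were not called, at an adjusted p under 0.05 from edgeR's quasi-likelihood test across all 14714 tested genes. Over all tested genes 29.8% were higher and 28.4% lower in that comparison. At day 8 against day 0 the counts were again 49, 1 and 3, and the background was 34.2% higher and 33.5% lower. The libraries of the later day did not overlap those of day 0 for 50 members at day 4 and for 51 at day 8, where 64.9% and 76% of all tested genes did not overlap in either direction. The median log2 fold change of the members was 1.93 at day 4 and 2.16 at day 8, beside -0.02 and -0.01 for all tested genes. Both comparisons share the day 0 libraries, so their counts are not independent. A footprint count reflects both how much of an mRNA is present and how densely ribosomes load it, and in such bulk samples fewer cells of a type and less RNA per cell cannot be told apart. The labels do not say whether replicates came from separate cultures or animals, so the p-values reflect the spread among these libraries alone, which may be technical. Together the members took 0.469% to 0.512% of all counts at day 0, 1.65% to 2.45% at day 4 and 2.58% to 3.16% at day 8.

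**Figure D1:**
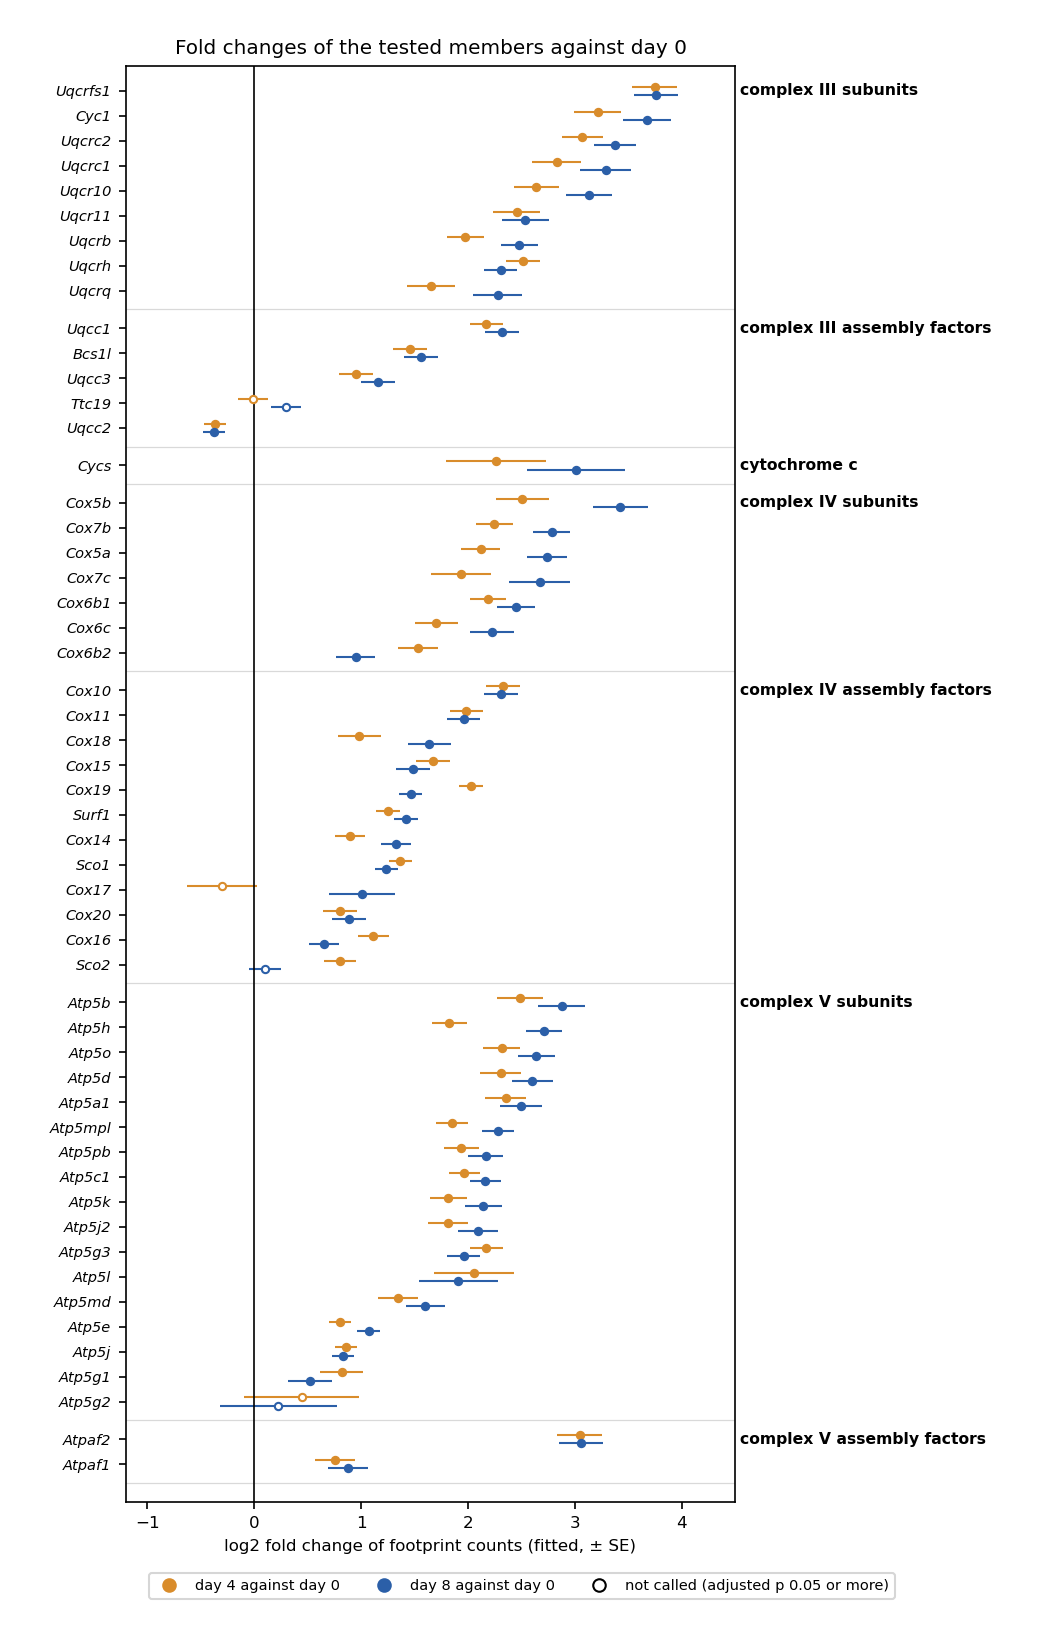
Fitted log2 fold changes with their standard errors for the 53 tested members against day 0, grouped by complex and role, with day 4 in orange and day 8 in blue. Open circles are members not called; complex III subunits lie furthest to the right, with medians of 2.64 and 3.13, and Uqcc2 lies left of 0 on both days.

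Pooled over the complexes, fold changes were larger, by median, in subunits than in assembly factors. Of 33 tested subunits, 32 were higher at both days, with a median log2 fold change of 2.06 at day 4 and 2.45 at day 8. Of 19 assembly factors, 16 were higher at day 4 and 16 at day 8, 15 of them on both days, with medians of 1.12 and 1.32. Uqcc2 was lower on both days, Ttc19 was called on neither, Cox17 was not called at day 4 and Sco2 not at day 8. Among the subunits, those of complex III had the largest median, 2.64 at day 4 and 3.13 at day 8, followed by complex IV with 2.12 and 2.67 and complex V with 1.85 and 2.15. The 2 assembly factors of complex V lay on either side of its subunit medians. Atpaf1 had log2 0.75 at day 4 and 0.88 at day 8, and Atpaf2 had 3.05 and 3.06. Their medians of 1.90 and 1.97 are thus midpoints that neither gene is near. The difference between the sets was described and not tested.

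All 9 complex III subunits rose. Uqcrfs1, the Rieske iron-sulfur protein that takes electrons from ubiquinol, had 94.9, 96.8 and 93.8 CPM at day 0, 1402, 901 and 1534 CPM at day 4, and 1382, 1319 and 1172 CPM at day 8. All later libraries stood above all day 0 libraries, and the 2 later days overlapped. Its fold change was 13.4 at day 4 (log2 3.75 ± 0.21 SE, edgeR adjusted p 6.71e-07) and 13.6 at day 8 (log2 3.76 ± 0.21, adjusted p 6.84e-07). Cyc1, cytochrome c1, which hands electrons to cytochrome c, had 94.8, 96.8 and 90.9 CPM at day 0, 1000, 612 and 1010 CPM at day 4, and 1321, 1329 and 969 CPM at day 8. It rose 9.29-fold at day 4 and 12.8-fold at day 8 (edgeR adjusted p 2.22e-06 and 1.15e-06). The level of Uqcrfs1 relative to Cyc1 in the same library was 1.01 ± 0.0175 at day 0, 1.46 ± 0.0588 at day 4 and 1.08 ± 0.113 at day 8 (SD, n = 3 each), so it was higher at day 4 than on the days before and after. Such a ratio is not per length, and only its change between days can be read.

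The core proteins Uqcrc1 and Uqcrc2, which face the matrix and resemble processing peptidases, rose together. Uqcrc1 had 209, 213 and 190 CPM at day 0, 1704, 942 and 1699 CPM at day 4, and 2111, 2120 and 1749 CPM at day 8, a rise of 7.11-fold and 9.78-fold. Uqcrc2 had 130, 131 and 120 CPM, then 1183, 760 and 1251 CPM, then 1366, 1328 and 1254 CPM, a rise of 8.40-fold and 10.4-fold. In both genes day 4 replicate 2 was the lowest induced library by a wide margin, and it still exceeded every day 0 library. The small accessory subunits Uqcr10, Uqcr11, Uqcrb, Uqcrh and Uqcrq rose by log2 1.65 to 2.64 at day 4 and by 2.28 to 3.13 at day 8. Uqcrb, once named the ubiquinone-binding protein, had 9.93, 9.13 and 9.63 CPM at day 0, 39.4, 29.2 and 44.4 CPM at day 4, and 55.9, 60.0 and 44.2 CPM at day 8.

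Complex III assembly factors diverged. Uqcc1, Bcs1l and Uqcc3 rose, Ttc19 was not called and Uqcc2 fell. Uqcc1, which acts with Uqcc2 on newly made cytochrome b, had 20.9, 20.1 and 16.2 CPM at day 0, 87.3, 69.8 and 101 CPM at day 4, and 101, 96.3 and 88.4 CPM at day 8, a rise of 4.51-fold and 5.00-fold. Uqcc2 had 40.0, 37.4 and 39.4 CPM at day 0, 27.5, 33.6 and 29.3 CPM at day 4, and 29.2, 32.6 and 28.2 CPM at day 8. Every later library of Uqcc2 was below every day 0 library. It fell by 0.37 on the log2 scale at day 4 (SE 0.10, edgeR adjusted p 0.0122) and by 0.37 at day 8 (SE 0.10, adjusted p 0.00923). Without day 4 replicate 1 the day 4 call was lost (log2 -0.30, edgeR adjusted p 0.0501).

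Bcs1l, the AAA protein that translocates the Rieske protein into the complex, had 14.1, 14.2 and 14.2 CPM at day 0, 43.6, 29.4 and 43.6 CPM at day 4, and 47.3, 38.8 and 39.2 CPM at day 8. Uqcc3, a further factor for cytochrome b, had 16.8, 16.6 and 16.6 CPM, then 36.0, 24.4 and 36.4 CPM, then 39.5, 40.1 and 32.1 CPM. Both rose on both days, Bcs1l by 2.74-fold and 2.95-fold and Uqcc3 by 1.93-fold and 2.23-fold. Ttc19, which helps clear Rieske fragments after the protein is inserted, had 29.4, 29.5 and 23.6 CPM at day 0, 30.9, 22.1 and 29.1 CPM at day 4, and 35.7, 33.7 and 32.3 CPM at day 8. Its day 8 libraries did not overlap those of day 0, but the difference of log2 0.30 ± 0.14 missed the threshold (edgeR adjusted p 0.0821). It was called without day 4 replicate 2 (adjusted p 0.0227) and when only both groups were fitted (0.0287). The annotated span of Ttc19 shares 16217 bases with Ncor1, a gene at 84.9 CPM on average that itself changed by log2 0.55 and 0.72. The strand setting of the counts is not given, so reads there cannot be assigned with certainty. Of 54 members, 21 have a span that overlaps another gene of the count table, and only some of these overlaps are given here. The mean level of the overlapping genes ran from 0 to 543 CPM.

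Cytochrome c from Cycs rested on few counts. Its libraries held 10, 5 and 4 counts at day 0, 34, 21 and 42 at day 4, and 73, 55 and 40 at day 8. In CPM these are 0.304, 0.155 and 0.110, then 0.989, 0.578 and 1.18, then 2.04, 1.47 and 1.12. It rose 4.79-fold at day 4 and 8.05-fold at day 8 (edgeR adjusted p 0.00223 and 0.000255). Cycs has 3 named pseudogenes. How reads that map to several places were treated is not given, so its level is uncertain. The same limit applies to 7 other members with a named pseudogene, Uqcrh, Cox5b, Cox7c, Atp5c1, Atp5k, Atp5l and Atp5pb. Only pseudogenes carrying the symbol of their gene with a suffix were counted, so further members may share the limit.

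All 7 tested complex IV subunits rose on both days. Cox5b, a zinc-binding subunit on the matrix side, had 24.9, 18.0 and 17.2 CPM at day 0, 135, 71.4 and 137 CPM at day 4, and 222, 208 and 218 CPM at day 8. The 3 groups did not overlap, and the fold was 5.70 at day 4 and 10.8 at day 8 (edgeR adjusted p 2.11e-05 and 3.16e-06). The single named pseudogene of Cox5b averaged 225 counts per library, against 4183 for the gene. Cox5a, its partner subunit, had 128, 145 and 128 CPM, then 649, 474 and 619 CPM, then 977, 1011 and 692 CPM, a rise of 4.36-fold and 6.70-fold. The ratio of Cox5b to Cox5a was 0.152 ± 0.0383 at day 0, 0.193 ± 0.0375 at day 4 and 0.249 ± 0.0577 at day 8 (SD, n = 3 each), with overlapping libraries between neighbouring days.

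Cox7b had 68.2, 55.0 and 55.3 CPM at day 0, 286, 230 and 332 CPM at day 4, and 437, 447 and 344 CPM at day 8, and Cox6c had 138, 146 and 138 CPM, then 531, 317 and 528 CPM, then 719, 707 and 549 CPM. These small membrane subunits rose 4.75-fold and 3.26-fold at day 4 and 6.88-fold and 4.67-fold at day 8. Cox7c rose 3.82-fold and 6.38-fold. Cox6b1, the somatic isoform of a subunit at the dimer interface, had 142, 124 and 119 CPM, then 619, 482 and 650 CPM, then 803, 726 and 569 CPM. Cox6b2, the isoform known from testis, had 8.16, 4.86 and 6.40 CPM at day 0, 19.3, 18.1 and 18.8 CPM at day 4, and 12.0, 14.4 and 11.1 CPM at day 8. It peaked at day 4 in all its libraries, while Cox6b1 did not, and the ratio of Cox6b2 to Cox6b1 was 0.0503 ± 0.00972 at day 0, 0.0326 ± 0.00452 at day 4 and 0.0181 ± 0.00274 at day 8. The isoform genes Cox6c2 and Cox20b are pseudogenes in RefSeq and were not members.

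Complex IV assembly factors had a smaller median fold change than its subunits (log2 1.18 at day 4 and 1.37 at day 8) and did not keep 1 pattern. At day 4, 11 of 12 were higher and 1, Cox17, was not called. At day 8, 11 were higher and Sco2 was not called. Among them are the enzymes that make heme A, the prosthetic group of the oxygen-binding site. Cox10, the heme O synthase, had 8.41, 8.70 and 9.71 CPM at day 0, 45.6, 35.0 and 54.1 CPM at day 4, and 46.1, 46.1 and 40.6 CPM at day 8, the largest rise of the 12 factors at both days (5.02-fold and 4.95-fold). Cox15, which converts heme O to heme A, rose 3.19-fold and 2.80-fold.

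The copper factors split. Cox11, which delivers copper to the catalytic subunit, had 11.1, 11.7 and 9.30 CPM at day 0, 45.2, 33.0 and 48.8 CPM at day 4, and 40.6, 44.0 and 40.1 CPM at day 8. Cox19, a soluble partner in copper transfer, had 14.1, 16.1 and 15.8 CPM, then 55.4, 62.5 and 69.0 CPM, then 45.0, 41.1 and 40.5 CPM. Cox11 libraries of the later days overlapped, and Cox19 was highest at day 4, where no library overlapped day 0 or day 8. Sco2, a copper chaperone for the second subunit, had 8.53, 7.96 and 7.92 CPM at day 0, 11.1, 16.0 and 15.4 CPM at day 4, and 8.43, 9.04 and 8.71 CPM at day 8. It was higher at day 4 (1.75-fold, edgeR adjusted p 0.00123), while the day 8 libraries overlapped those of day 0 (log2 0.10 ± 0.15, adjusted p 0.57). Its span shares 1221 bases with Ncaph2, at 36.5 CPM on average and log2 -0.30 at day 4. The related chaperone Sco1 rose 2.58-fold at day 4 and 2.36-fold at day 8. Cox17, the copper donor to Sco1 and Cox11, had only 25, 32 and 45 counts at day 0, 32, 32 and 22 at day 4, and 98, 62 and 59 at day 8. Its day 4 libraries overlapped day 0 (log2 -0.30 ± 0.32, edgeR adjusted p 0.446) and its day 8 libraries were higher (log2 1.01 ± 0.31, adjusted p 0.0154). That call was lost without day 0 replicate 1 (adjusted p 0.0589) or without day 8 replicate 1 (0.0709).

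**Figure D2:**
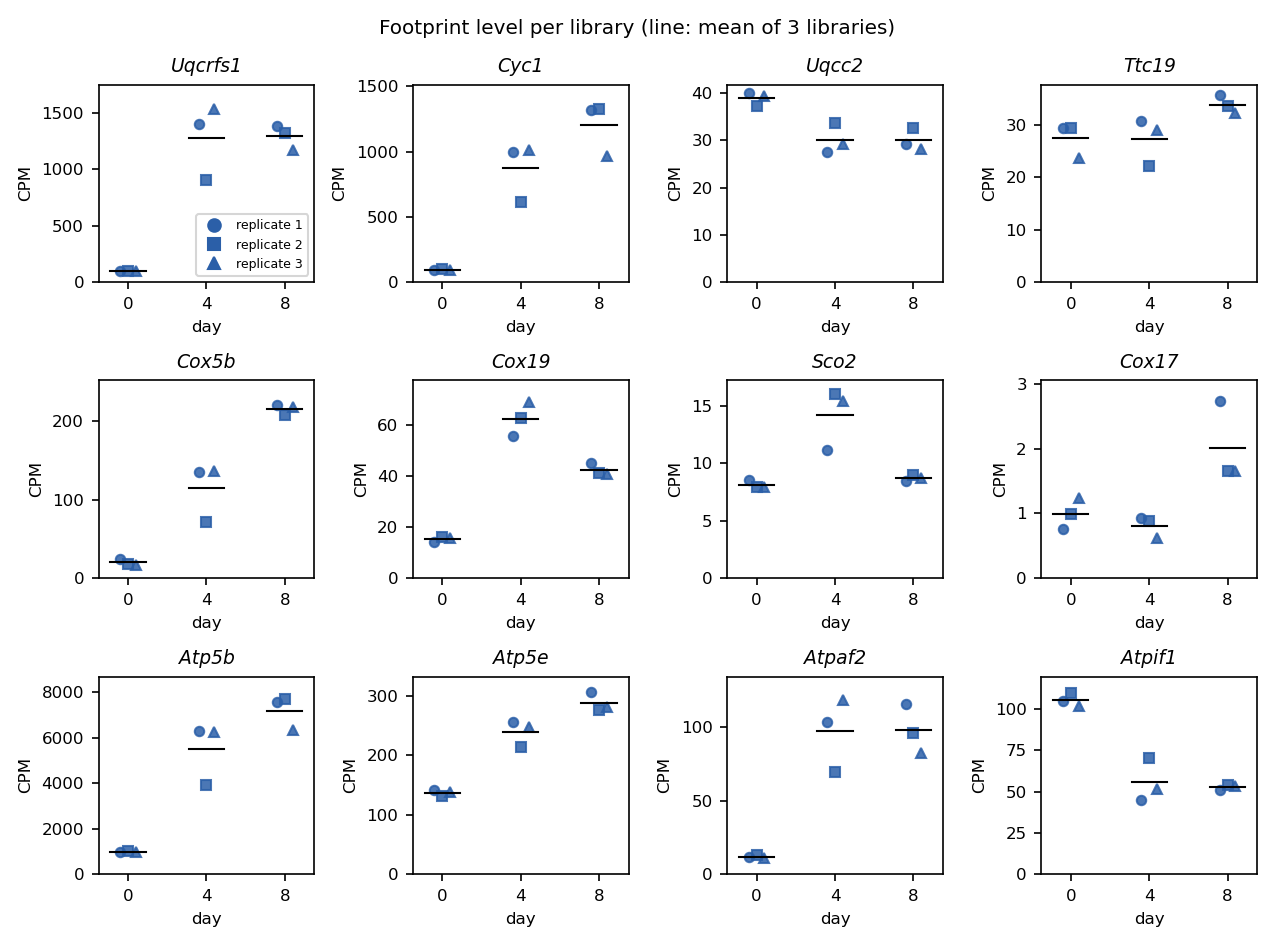
CPM per library (vertical axis, starting at 0) against day of differentiation for 11 members and the ATP synthase inhibitor gene Atpif1; marker shapes are replicates 1 to 3 and lines are means. Uqcrfs1, Cyc1, Cox5b, Atp5b and Atpaf2 stand above day 0 in every later library, Uqcc2 and Atpif1 stand below it, and Cox19 and Sco2 are highest at day 4.

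The remaining factors act on membrane insertion and early assembly. Cox18, which inserts the tail of the second subunit into the membrane, had 10.1, 8.33 and 7.29 CPM at day 0, 20.7, 12.2 and 17.9 CPM at day 4, and 28.9, 27.9 and 23.1 CPM at day 8. Cox14, which accompanies the newly made first subunit, had 70.8, 64.2 and 63.4 CPM, then 139, 101 and 129 CPM, then 171, 180 and 145 CPM. In both genes the 3 days formed separate steps without overlap. Cox16, which acts on the second subunit, had 9.81, 11.6 and 10.5 CPM, then 25.2, 18.7 and 25.2 CPM, then 18.0, 15.9 and 16.3 CPM, with its highest level at day 4. Surf1, whose human counterpart is mutated in Leigh syndrome, rose 2.38-fold and 2.68-fold. Cox20, a chaperone of the second subunit, rose 1.75-fold and 1.85-fold; its span shares 1586 bases with Hnrnpu, which averaged 543 CPM.

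Of 17 tested complex V subunits, 16 rose on both days and Atp5g2 was not called. The F1 sector, which holds the catalytic sites and the central stalk, had a summed level of 2164 ± 37.9 CPM at day 0, 10892 ± 2489 CPM at day 4 and 13330 ± 1383 CPM at day 8 (SD, n = 3 each). Atp5b, the catalytic beta subunit, had 951, 1006 and 973 CPM at day 0, 6300, 3895 and 6247 CPM at day 4, and 7564, 7673 and 6324 CPM at day 8. Atp5a1, the alpha subunit that forms the hexamer with it, had 714, 732 and 736 CPM, then 4137, 2801 and 4203 CPM, then 4483, 4270 and 3575 CPM. Beta rose 5.61-fold and 7.36-fold and alpha 5.11-fold and 5.65-fold. The beta to alpha ratio was 1.34 ± 0.0279 at day 0, 1.47 ± 0.0683 at day 4 and 1.75 ± 0.0571 at day 8, and its day 8 libraries, between 1.69 and 1.80, lay above all others. Atp5c1 and Atp5d, the gamma and delta subunits of the rotor stalk, rose 3.91-fold and 4.95-fold at day 4 and 4.48-fold and 6.07-fold at day 8.

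Atp5e, the small epsilon subunit of the same stalk, rose less. It had 142, 131 and 138 CPM at day 0, 256, 214 and 247 CPM at day 4, and 306, 277 and 282 CPM at day 8, a fold of 1.75 and 2.10 (edgeR adjusted p 0.000137 and 1.75e-05). Its ratio to Atp5b was 0.140 ± 0.00929 at day 0, 0.0451 ± 0.00868 at day 4 and 0.0404 ± 0.00423 at day 8. Such a gap also appeared in the peripheral stalk, which holds the F1 sector still. There Atp5o, Atp5h and Atp5pb rose 4.98-fold, 3.55-fold and 3.84-fold at day 4 and 6.23-fold, 6.56-fold and 4.49-fold at day 8, while Atp5j, coupling factor F6, rose 1.82-fold and 1.78-fold. The ratio of Atp5j to Atp5pb was 1.24 ± 0.122 at day 0, 0.598 ± 0.0925 at day 4 and 0.491 ± 0.0555 at day 8. The span of Atp5j shares 967 bases with Gabpa, at 74.7 CPM on average, and the part of such reads was not tested.

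Atp5o, the subunit that joins the stalk to F1, had 81.2, 82.3 and 73.0 CPM at day 0, 429, 294 and 455 CPM at day 4, and 536, 496 and 442 CPM at day 8. Atp5h, subunit d of the stalk, had 12.8, 9.66 and 11.9 CPM, then 43.2, 31.4 and 47.8 CPM, then 78.1, 76.2 and 71.8 CPM. Atp5h formed 3 separate steps, whereas the later days of Atp5o overlapped. The 5 accessory subunits in the membrane, Atp5j2, Atp5k, Atp5l, Atp5md and Atp5mpl, rose by log2 1.35 to 2.06 at day 4 and by 1.60 to 2.28 at day 8. Atp5mpl, the proteolipid subunit, had 50.8, 50.6 and 47.7 CPM, then 196, 138 and 205 CPM, then 246, 251 and 228 CPM. Atp5l rested on 15 to 126 counts per library.

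The c ring, through which protons pass, is encoded by 3 genes, and Atp5g1 and Atp5g2 rested on few counts. Atp5g3 had 224, 215 and 200 CPM at day 0, 1014, 769 and 1099 CPM at day 4, and 878, 770 and 840 CPM at day 8, a rise of 4.51-fold and 3.90-fold. Atp5g1 had 1.40, 1.49 and 1.35 CPM, then 2.79, 2.12 and 2.57 CPM, then 1.84, 2.03 and 2.21 CPM. It was higher at day 4 (log2 0.82 ± 0.21, edgeR adjusted p 0.00659). Its day 8 call (log2 0.52 ± 0.21, adjusted p 0.0454) was lost in 13 of 16 alternative settings, among them leaving out any 1 library other than day 4 replicate 2, with adjusted p between 0.0506 and 0.111. Atp5g2 had 13, 4 and 11 counts at day 0, 12, 17 and 11 at day 4, and 18, 5 and 12 at day 8, and its days overlapped (log2 0.45 ± 0.54 and 0.23 ± 0.55). Their mature proteins are the same, so reads shared between near-identical stretches may have been split or dropped, and the low counts of Atp5g1 and Atp5g2 are uncertain. The ratio of Atp5g3 to Atp5b was 0.218 ± 0.0154 at day 0, 0.178 ± 0.0184 at day 4 and 0.116 ± 0.0162 at day 8.

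Both complex V assembly factors rose, by different amounts. Atpaf2, the chaperone of the alpha subunit, had 11.8, 12.7 and 10.7 CPM at day 0, 103, 69.4 and 118 CPM at day 4, and 115, 95.7 and 82.5 CPM at day 8. Its fold of 8.26 and 8.34 (edgeR adjusted p 2.21e-06 and 1.96e-06) was the largest of the 19 assembly factors, and its span shares 3335 bases with Gid4, which averaged 13.3 CPM. Atpaf1, the chaperone of the beta subunit, had 2.65, 2.88 and 2.90 CPM, then 5.73, 3.96 and 4.54 CPM, then 5.86, 5.08 and 4.56 CPM, a fold of 1.69 and 1.84 (adjusted p 0.00671 and 0.00224). The ATP synthase inhibitor gene, listed as Atpif1 and so outside the rule on symbols, went the other way. It had 105, 110 and 102 CPM at day 0, 45.0, 70.2 and 51.8 CPM at day 4, and 50.8, 54.3 and 53.3 CPM at day 8. It fell by 0.93 at day 4 and by 1.00 at day 8 on the log2 scale (edgeR adjusted p 0.00047 and 0.000211), and no later library overlapped day 0.

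Summed over each set, the gap between subunits and assembly factors opened in complexes III and IV and not in complex V. Complex III subunits summed to 951 ± 41.9 CPM at day 0, 6547 ± 1717 CPM at day 4 and 8240 ± 910 CPM at day 8, and its assembly factors to 116 ± 5.79, 215 ± 31.4 and 238 ± 16.6 CPM (SD, n = 3 each). The ratio of these sums was 7.87, 8.41 and 8.25 in the day 0 libraries, 33.3, 25.4 and 31.6 at day 4, and 34.8, 36.2 and 32.6 at day 8. In complex IV it was 2.45, 2.42 and 2.39, then 4.13, 3.62 and 3.98, then 5.70, 5.65 and 4.80. Neither ratio overlapped between day 0 and a later day, and that of complex IV did not overlap between the later days. In complex V the ratio was 205, 195 and 215 at day 0, 142, 141 and 129 at day 4, and 147, 171 and 169 at day 8, lower in every later library. The complex V denominator holds only Atpaf1 and Atpaf2, and most of it is Atpaf2. These ratios are sums over genes of unequal length, and the abundant genes dominate them, so only their change between days can be read.

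**Figure D3:**
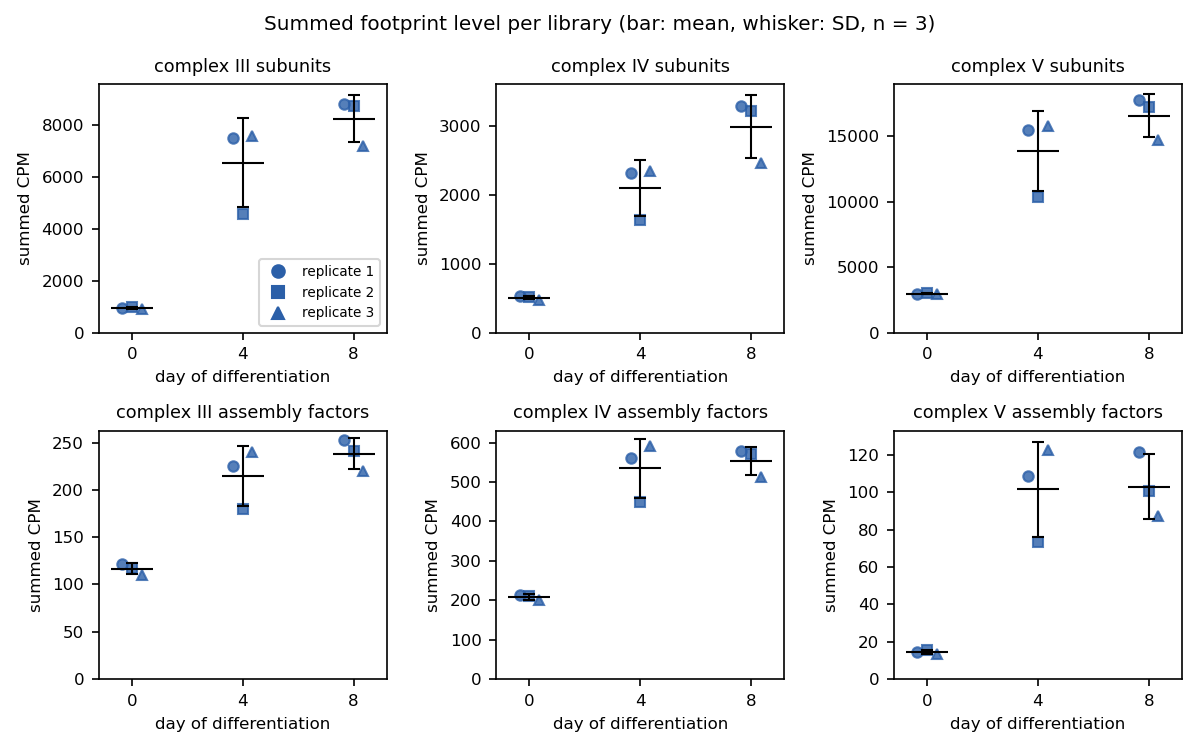
Summed CPM per library (vertical axes, starting at 0) against day for the subunits (upper row) and assembly factors (lower row) of complexes III, IV and V; bars are means and whiskers SD of 3 libraries. Subunit sums lie between 4.16 and 6.89 times their day 0 mean at day 4 and between 5.57 and 8.67 times at day 8. Assembly factors of complexes III and IV lie between 1.85 and 2.65 times, and those of complex V at 6.99 and 7.08 times. Replicate 2 is the lowest library of day 4 in all 6 panels.

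Day 8 was also set against day 4. Of 53 members, 9 were higher, 4 were lower and 40 were not called (edgeR adjusted p under 0.05), where 14.7% of all tested genes were higher and 17.1% lower. The share called higher is thus near the background, and the share called lower is below it. The median log2 fold change of the members was 0.23, beside -0.02 for all tested genes. It was 0.29 for subunits, of which 6 of 33 were higher and 1 lower, and 0.09 for assembly factors, of which 3 of 19 were higher and 3 lower. Scaling to library totals, which shifts the median of all genes by 0.14, gave 19 members higher and 2 lower. Leaving out both libraries that stand apart, a setting chosen after seeing the data, gave 17 higher and 5 lower and a member median of 0.14. Without day 4 replicate 2 alone that median was 0.07. The number called higher was 1 without day 8 replicate 1, 3 without day 8 replicate 2, and 5 without day 0 replicate 2 or 3. The number called lower was 2 without day 4 replicate 1 or 3, or without day 8 replicate 1 or 3.

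The members higher at day 8 than at day 4 were 1 complex III subunit (Uqcrb), 3 complex IV subunits (Cox5a, Cox5b and Cox7b), 3 complex IV factors (Cox14, Cox17 and Cox18) and 2 complex V subunits (Atp5h and Atp5mpl). The largest was Cox17, with 2.74, 1.66 and 1.65 CPM at day 8 against 0.93, 0.881 and 0.62 CPM at day 4 (2.48-fold, edgeR adjusted p 0.0125). Cox5b was 1.89-fold higher (log2 0.92 ± 0.23, adjusted p 0.016) and Atp5h 1.85-fold higher (log2 0.89 ± 0.16, adjusted p 0.00343), both without overlap. Uqcrb was 1.42-fold higher, with its lowest day 8 library, 44.2 CPM, just under its highest day 4 library, 44.4 CPM. Of these 9, the call of Atp5h held under all 16 alternatives. Those of Cox5b and Cox17 were lost only without day 8 replicate 1 (edgeR adjusted p 0.0528 and 0.0566). Cox18 and Cox5a lost theirs under 3 alternatives each, among them leaving out day 8 replicate 1 or 2 (adjusted p between 0.0904 and 0.105), and Cox18 also without day 4 replicate 3 (0.0608). Cox7b, Cox14, Atp5mpl and Uqcrb lost theirs under 8 or 9. Cox7b lost its call without replicate 2 or 3 of day 0, replicate 1 or 2 of day 4, or replicate 1 or 2 of day 8 (edgeR adjusted p between 0.0502 and 0.119). Cox14 lost it without any single library other than day 4 replicate 1 or day 8 replicate 3 (between 0.0556 and 0.135), and Uqcrb without any other than day 4 replicate 3 or day 8 replicate 3 (between 0.0571 and 0.143). Atp5mpl lost it without any library of day 0 or day 8 (between 0.06 and 0.132).

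The members lower at day 8 than at day 4 all belong to complex IV. They were the subunit Cox6b2 and the factors Cox16, Cox19 and Sco2. Sco2 fell by 0.70 (SE 0.15, edgeR adjusted p 0.00735) and Cox19 by 0.56 (SE 0.11, adjusted p 0.00442) on the log2 scale, and both calls held under all 16 alternatives. Cox6b2 fell by 0.58 (adjusted p 0.0327) and Cox16 by 0.46 (adjusted p 0.0299), and each lost its call under 8 alternatives. Cox16 lost it without replicate 1 or 3 of day 4 or without any library of day 8 (edgeR adjusted p between 0.0553 and 0.0995). Cox6b2 lost it without day 0 replicate 3, or without replicate 1 or 3 of day 4 or of day 8 (between 0.0506 and 0.1), and also without both libraries that stand apart (0.0526). Of the 5 copper factors, 1 was thus higher and 2 were lower, and neither heme A enzyme was called. The mean of 26 of 33 subunits was highest at day 8 and that of 7 at day 4. Of 19 assembly factors, 11 were highest at day 8, 7 at day 4 and 1 at day 0. The 7 highest at day 4 were all complex IV factors, and 5 factors of that complex were highest at day 8. Among the 7 tested complex IV subunits, 6 were highest at day 8 and 1 at day 4. The share over all tested genes was not computed.

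**Figure D4:**
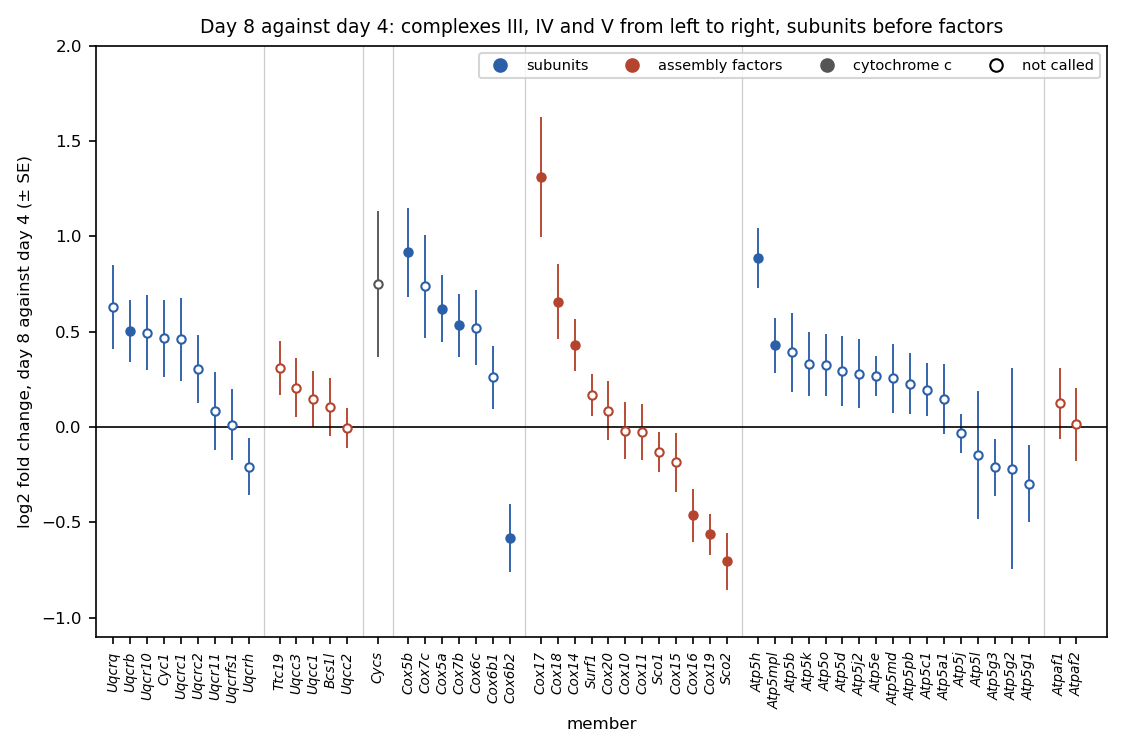
Fitted log2 fold changes, day 8 against day 4, with standard errors for the 53 tested members, subunits in blue, assembly factors in red and cytochrome c in grey, with open circles not called. Cox17, Cox5b and Atp5h are the highest of the called members, and the 4 called members below 0 are Cox6b2, Cox16, Cox19 and Sco2.

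Other genes of the same pathway were read from lists chosen beside the members. Of 10 complex IV subunits outside the rule, 9 were higher at day 4, 10 at day 8, and 7 at day 8 against day 4, led at day 4 and day 8 against day 0 by Cox8b, a subunit isoform known from muscle and brown fat, with 0.366, 0.433 and 0.221 CPM at day 0, 48.2, 15.5 and 29.2 CPM at day 4, and 142, 175 and 85.8 CPM at day 8. Among the 6 subunits that mitochondrial DNA encodes for these complexes, 5 were higher on each day against day 0, with medians of log2 0.63 and 0.78 beside 2.06 and 2.45 for the nuclear subunits described above. They parted late. At day 8 against day 4 mt-Co2, with 12.2, 13.7 and 9.71 CPM against 7.04, 4.57 and 6.43 CPM, was 1.97-fold higher (edgeR adjusted p 0.00588), and mt-Cytb, the cytochrome b of complex III, was lower, with 273, 272 and 285 CPM against 345, 417 and 464 CPM (adjusted p 0.0161). Also higher was mt-Co1, by 1.93-fold, with 857, 905 and 679 CPM at day 8 against 433, 381 and 450 CPM at day 4 (edgeR adjusted p 0.00284). Whether the footprints of mitochondrial ribosomes were recovered to the same degree was not tested, and the treatment of multiply mapping reads is not given.

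Of 20 tested assembly factors outside the rule, 19 were higher at day 4 and 20 at day 8, with medians of log2 1.08 and 1.38, close to the 1.12 and 1.32 of the 19 member factors. Fmc1, which acts with Atpaf2 in ATP synthase assembly, rose the most, 6.96-fold and 9.30-fold, and Lyrm7, which holds the Rieske protein before Bcs1l inserts it, was the largest of 4 that were higher at day 8 against day 4 (1.87-fold). All 8 genes of complex II were higher on both days against day 0. At day 8 against day 4 their log2 fold changes ran between -0.29 for Sdhaf2 and 0.53 for Sdha, a subunit of the enzyme, with edgeR adjusted p between 0.0538 and 0.587. Of 7 genes for the exchange of ATP and phosphate, 6 were higher on both days, the largest being the carrier Slc25a5 (log2 2.25 and 1.99), and Atpif1 was lower. The phosphate carrier Slc25a3 was lower at day 8 than at day 4, with 470, 416 and 476 CPM against 619, 611 and 740 CPM (edgeR adjusted p 0.00941).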

How the data were processed

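The deposited values are raw counts of ribosome footprints per Ensembl gene, 1 column per library, made by the authors. Per the submitters' processing notes, reads were trimmed with cutadapt, aligned to GRCm39 with HISAT2 and counted with featureCounts. Not given in the sources used here are versions, strand setting, counted feature and how multiply mapping reads were treated. Matched RNA levels were not analysed here.

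Groups came from the labels. Genes passing filterByExpr (minimum count 10), 14714 in all, were compared by edgeR's quasi-likelihood test (edgeR 4.0.16, R 4.3.3) after TMM scaling, over all 9 libraries with group as the only term and Benjamini-Hochberg adjustment over all tested genes at 0.05. Standard errors derive from the F statistic. CPM are given per library, or as mean ± SD (n = 3). Alternatives changed scaling, filter, test (DESeq2 1.42.0), libraries fitted, a replicate block and each library in turn, and the fit was tested on simulated data. Values were printed for the largest changes of each complex and role, members not called higher on both days, late changes, isoform families and the largest of each pathway list. Members and lists were chosen with earlier results of these data known. Pseudogene classes, gene spans and promoters came from RefSeq (GRCm38.p6). Protein or coding lengths were not used here, so ratios between genes are not per length and only their change between days can be read. No 2 libraries of a group agreed within sampling noise (chi-square per gene 15.7 to 256).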

Additional observations from a re-analysis of the deposited data

How the results depend on the processing

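The number of members higher against day 0 stayed at 49 at day 4 and within 47 to 50 at day 8. Of 77 results on named members that were called, 0 changed sign under the alternatives run, and of 28 not called, 10 did under at least 1, among them Atp5g2 at day 8 and Ttc19 at day 4 against day 0. The single fall at day 4, Uqcc2, became 0 without day 4 replicate 1, and leaving out 1 library gave 0 to 1. For day 8 against day 4, the 9 members called higher became 19 with library totals, 5 with the replicate block, 4 with only both groups in the fit and 17 without both libraries that stand apart, and ranged over 1 to 11 when 1 library was left out. The 4 called lower became 2 with library totals and 2 with the replicate block, and ranged over 2 to 6. Settings that leave out a library also have fewer libraries in the fit, and the cause of these changes was not tested. Deviations of same-numbered replicates from their day means had correlations of -0.2 to 0.188, and those of other replicates -0.296 to 0.314. Between day 0 and day 8 the same-numbered correlations were 0.121, 0.071 and 0.0855, and all others were negative. The deviations of a day sum to 0 for each gene, so positive same-numbered values by construction make the others negative on balance. These values do not settle whether the replicates are paired. No label says what the numbers share, so the number was treated as a name and the replicate block was run as an alternative. Of 105 results on named members, 84 kept their call under all alternatives and 21 did not. Library totals moved the day 0 sums to 217 CPM for complex IV factors and 3096 CPM for complex V subunits. A planned level per coding length was not run, for want of lengths. Depth limits Cycs, Cox17, Atp5g1, Atp5g2 and Atp5l, which held at most 126 counts per library.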
